A study of Mus musculus with 8 samples.

Results

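The cytosolic ribosomal protein genes were examined in inguinal white adipose tissue (iWAT, the subcutaneous fat depot of the groin) of mice lacking the lysophosphatidic acid receptor LPA4. The members were the genes whose symbol is Rpl or Rps with a number and an optional a, x or l, together with Rplp0, Rplp2 and Rpsa. Ribosomal S6 kinases and pseudogenes were left out, and only probe sets annotated with a single gene symbol counted. This gave 46 genes of the 18193 measured, 24 of the large and 22 of the small subunit, carried by 100 of the 45101 probe sets. Each gene was given the value of its brightest probe set, and all values are log2 signals.

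The LPA4-KO group held 4 male mice with a deficient Lpar4 allele (Lpar4 -/Y), and the WT group 4 male wild-type mice. All 8 were littermates of the C57BL/6 strain background, 12 weeks old and fed standard chow, and each mouse had its own array. Lpar4 is X-linked, so males carry a single copy, and the labels name no promoter or cell type that restricts the deficiency. Biotin-labelled RNA amplified from the total RNA of the snap-frozen depot was hybridised to 3′ expression arrays.

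The cytosolic ribosome translates all messenger RNA of nuclear origin. Its small subunit reads the codons and its large subunit joins the amino acids, and each carries a defined set of proteins. The messages of these proteins are among the most abundant of most cells. In mammals their transcripts start with a run of pyrimidines at the cap, the 5′ terminal oligopyrimidine (TOP) motif, through which mTORC1 signalling adjusts their translation. White fat holds adipocytes and also vessel, immune and connective tissue cells, each with its own ribosomes, and in a whole depot fewer cells of a type and less RNA per cell cannot be told apart.

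The annotated start regions of a few members show the pyrimidine run. RefSeq promoter windows (GRCm38.p6) were matched for 40 of the 46 members. An unbroken stretch of at least 5 C or T bases that covered the annotated start was present in 13 of the 40 members (32.5%), against 11.8% of the 27025 genes with a window. The share was 7 of 25 among members whose signal varied between arrays and 6 of 15 among members whose signal was near constant, terms explained with the array values. The members printed are Rpl35 (chr2:39005117-39005171, minus strand), the member with the largest difference among those that passed the test; Rps18 (chr17:33955651-33955705, minus strand), the largest difference in the small subunit; Rps6 (chr4:86857353-86857407, minus strand) and Rpl14 (chr9:120571477-120571531, plus strand), which had near-constant signals; and the paralogs Rpl39l (chr16:10170188-10170242, plus strand) and Rpl3l (chr17:24727786-24727840, plus strand), which have no such run. Each holds 40 bases before the annotated start and the first 15 bases from it, written 5′ to 3′ on the strand of the gene, with the run in capitals.
Rpl35: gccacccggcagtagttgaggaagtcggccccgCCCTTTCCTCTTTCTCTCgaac
Rps18: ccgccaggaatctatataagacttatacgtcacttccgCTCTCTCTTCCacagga
Rps6: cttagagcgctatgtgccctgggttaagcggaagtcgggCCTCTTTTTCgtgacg
Rpl14: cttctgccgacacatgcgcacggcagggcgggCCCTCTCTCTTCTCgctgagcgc
Rpl39l: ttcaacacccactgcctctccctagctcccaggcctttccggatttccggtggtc
Rpl3l: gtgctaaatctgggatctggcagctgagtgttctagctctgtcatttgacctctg

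The letters CCGGAAG, a motif of the type bound by ETS family factors, were searched on both strands of the 300-base windows. They occurred in 20 of the 40 members (50%) and in 9.93% of all genes. Of the members printed, Rpl35, Rps18, Rps6 and Rpl39l held them, and Rpl14 and Rpl3l did not. Read on the other strand the motif opens with C and T bases, so that it can overlap a pyrimidine run. A match is a description of the sequence alone, and an annotated start can lie some bases away from the start used in fat.

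The deposited values set a limit on every count. Over the 8 arrays, 71.6% of all genes had a standard deviation (SD) under 0.01, called near constant here, and the other 5173 genes are called varying. Array medians lay between 6.73 and 6.74. Of the 3 Lpar4 probe sets, 1452424_at averaged 5.81 ± 0.07 in LPA4-KO and 6.93 ± 0.10 in WT (SD, n = 4 each; limma adjusted p = 0.0104 over all probe sets), whereas 1434186_at and 1439665_at were higher in LPA4-KO by 0.71 and 0.53 without passing (adjusted p = 0.144 and 0.128). The position of each relative to the deleted part of the gene is not known here. The adipocyte markers were bright in both genotypes, with array means over 6 measured markers of 12.27 to 12.35 in LPA4-KO and 12.30 to 12.37 in WT. The arrays also parted by replicate number, 1 and 2 against 3 and 4 in both genotypes, most plainly in the 7 skeletal muscle markers, whose array means ran from 6.61 to 9.85 in LPA4-KO and from 6.66 to 9.31 in WT.

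The ribosomal proteins leaned low in LPA4-KO fat, by small amounts. Of the 29 members that varied, 26 averaged lower in LPA4-KO than in WT and 3 higher, while 47.7% of all varying genes were lower. The median difference (LPA4-KO minus WT) was -0.08 over the varying members, against 0.01 over all varying genes, and the differences ran from -0.43 for Rpl39l to 0.05 for Rps4l. With the 17 near-constant members included, the median was -0.02, against a median of 2.86e-05 over all genes. Single arrays moved that -0.0234 (to -0.00979 without WT 1, -0.0105 without WT 2 and -0.0401 without WT 3), as did quantile normalisation (-0.0144) and leaving out the x_at and s_at probe sets (-0.0405), and it stayed negative in each. The median absolute difference was 0.08 for the varying members and 0.18 for all varying genes.

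Single members rarely passed the test. Genotypes were compared with limma over all 18193 genes, with Benjamini-Hochberg adjustment and a threshold of 0.05. By this two-sided test 2 of the 46 members fell in LPA4-KO, Rpl35 and Rpl41, and 0 rose. Over all genes 1.64% were called lower and 2.39% higher. In the limma fit of varying genes alone, 1 of 29 members was called lower (Rpl35) and 0 higher. There 12.2% of the varying genes were called lower and 14.9% higher. At an unadjusted p under 0.05, 17 members were lower and 0 higher, where 10.1% of all genes were lower. With the replicate number as a block, 0 members and 0 genes in all passed the adjusted test. At an unadjusted p under 0.05 that fit had 9 members lower and 0 higher. The share of all genes at that level was not counted there, so these have no background beside them. With arrays 1 and 2 against 3 and 4 as the block instead, Rpl35 and Rpl41 still passed over all genes (limma adjusted p = 0.0401 and 0.0330). Without LPA4-KO 3 also 0 members passed, and without other single arrays 1 to 3. All 4 LPA4-KO arrays lay below all 4 WT arrays in 16 members, as in 7.00% of all genes, and above in 0. Among the varying genes alone, this held for 13 of 29 members and for 15.0% of all varying genes.

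**Figure D1:**
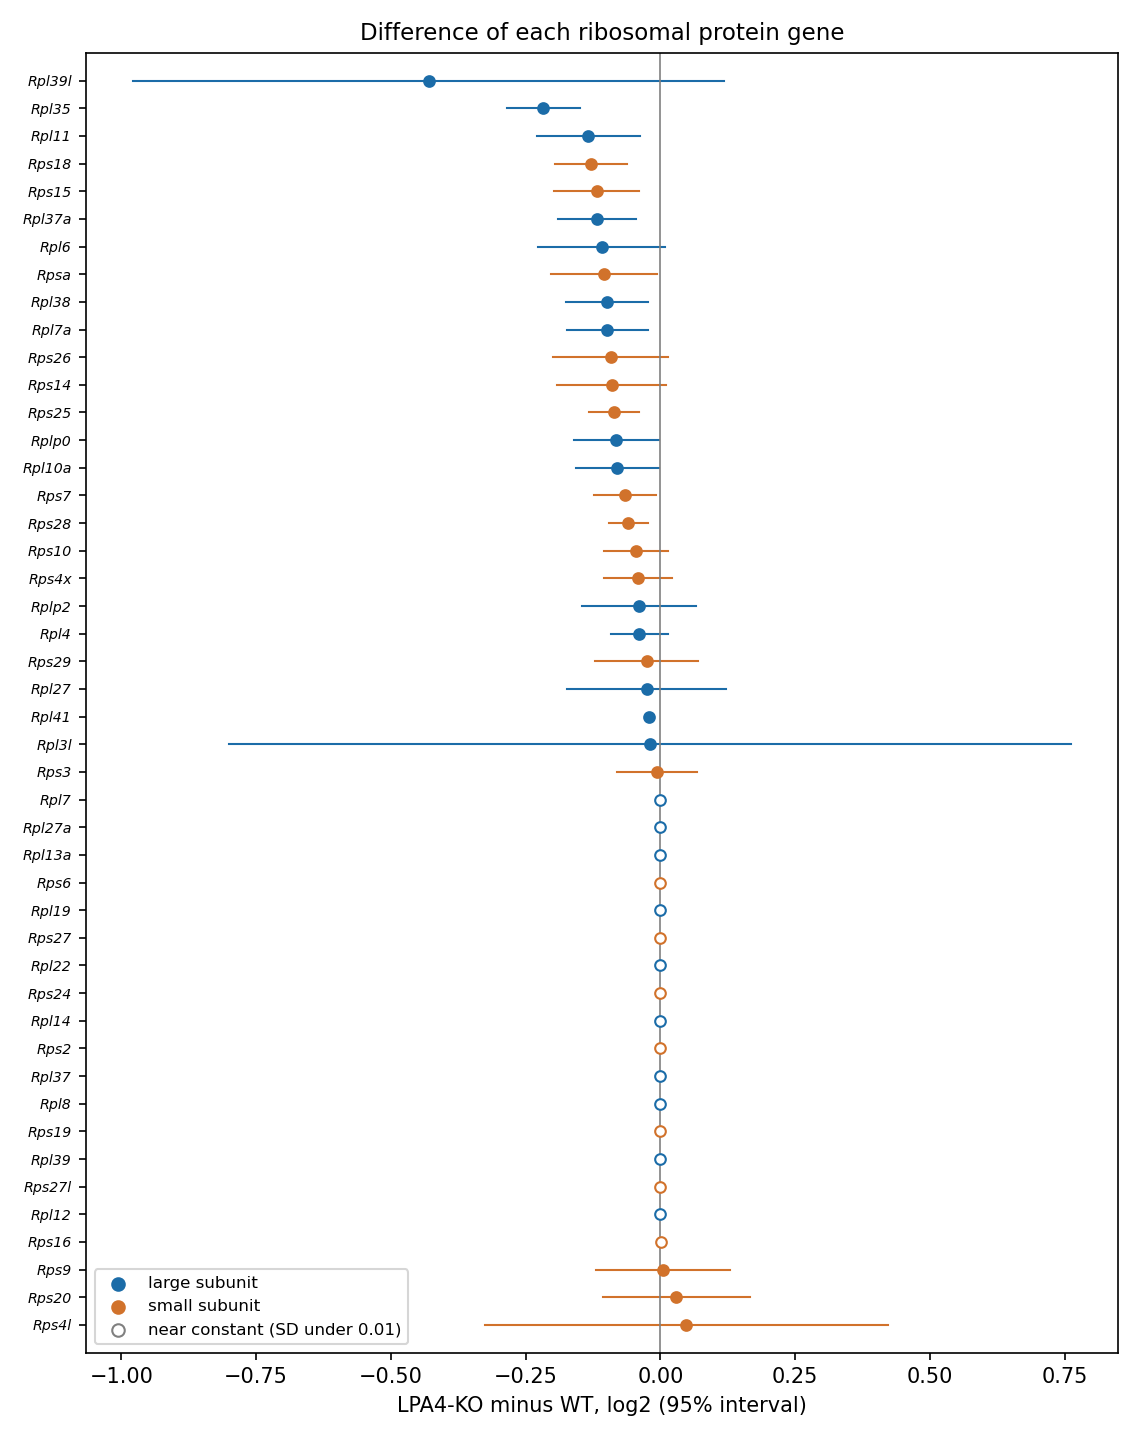
Difference of each of the 46 members, LPA4-KO minus WT, in log2 units with 95% intervals from limma (4 arrays per genotype), blue for the large and orange for the small subunit, with open circles for near-constant members. Differences range from -0.43 (Rpl39l) to 0.05 (Rps4l), and all 14 varying large subunit members lie left of 0.

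Rpl35, a protein of the large subunit near the exit of the polypeptide tunnel, had the larger difference of the 2. Its log2 signals were 11.85, 11.83, 11.91 and 11.87 in LPA4-KO, against 12.11, 12.13, 12.04 and 12.05 in WT. Every LPA4-KO array lay below every WT array, by at least the gap between 11.91 and 12.04. Rpl35 averaged 11.87 ± 0.03 in LPA4-KO and 12.08 ± 0.05 in WT (SD, n = 4 each), a difference of -0.22 (95% interval -0.28 to -0.15), or a signal 14% lower, with a limma adjusted p of 0.0229. A replicate block ended the call in the fit of all genes (adjusted p = 0.134). In the fit of varying genes with the block Rpl35 passed (adjusted p = 0.0467), as did 9.24% of those genes in the same direction. Leaving out single arrays kept the call in 2 of 8 fits over all genes (adjusted p of 0.0427 to 0.0678; lost without any 1 of the 4 LPA4-KO arrays or without WT 1 or WT 2) and in 8 of 8 fits of the varying genes (0.0235 to 0.0374).

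Rpl35 had 6 probe sets, the most of any member along with Rps18, Rps10 and Rps24. In a limma fit over all single-gene probe sets, where 1.28% were called lower, 5 of the 6 fell in LPA4-KO, with differences from -0.14 to -0.22. The remaining one, 1454833_at, was near constant at 6.27 in every array. Of the 5 that fell, 4 carry the x_at suffix, which Affymetrix gives to probe sets that may also bind other transcripts, and 1416243_a_at has the a_at suffix for transcripts of a single gene (difference -0.20, adjusted p = 0.0490). These probe sets read the same RNA and are not replicates.

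Rpl41, the smallest protein of the ribosome, passed with a far smaller difference. Its signals were 11.54, 11.55, 11.54 and 11.54 in LPA4-KO and 11.56 in each of the 4 WT arrays. The groups did not overlap, and the difference was -0.02 (limma adjusted p = 0.0160), a signal 1.49% lower. With an SD of 0.0120 over the 8 arrays, Rpl41 lay just above the limit for near-constant genes, and the next varying member had an SD of 0.0361. Among varying genes alone its adjusted p was 0.666, and with the replicate block over all genes 0.103. Over all genes its call was lost without LPA4-KO 3 (adjusted p = 0.0517) and kept without any other single array. A dimmer Rpl41 probe set, 1455578_x_at, differed by -0.08 without passing (adjusted p = 0.0501), and the other 2 were near constant.

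The remaining large subunit members that varied were all lower in LPA4-KO without passing. Rpl11, which besides its place in the ribosome binds MDM2 when assembly is disturbed, gave 11.70, 11.75, 11.79 and 11.72 in LPA4-KO against 11.97, 11.88, 11.80 and 11.85 in WT. Rpl37a, a zinc-binding protein of the large subunit, gave 12.81, 12.88, 12.91 and 12.88 in LPA4-KO against 13.02, 13.04, 12.94 and 12.96 in WT. In neither gene did the genotypes overlap, and the lowest WT arrays were numbers 3 and 4. The differences were -0.13 for Rpl11 (adjusted p = 0.115) and -0.12 for Rpl37a (adjusted p = 0.0840).

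Rplp0 and Rplp2 belong to the stalk of the large subunit, which recruits the elongation factors. Rplp0, often used as a reference gene in quantitative PCR, averaged 12.58 ± 0.06 in LPA4-KO and 12.66 ± 0.04 in WT (SD, n = 4 each), a difference of -0.08 with an adjusted p of 0.204. Its highest LPA4-KO array reached 12.62, just under the lowest WT array. Rplp2 overlapped between the genotypes, with a difference of -0.04 (adjusted p = 0.640). Rpl6, Rpl38, Rpl7a and Rpl10a differed by -0.11, -0.10, -0.10 and -0.08, and Rpl4 and Rpl27 by -0.04 and -0.03, none of them passing.

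**Figure D2:**
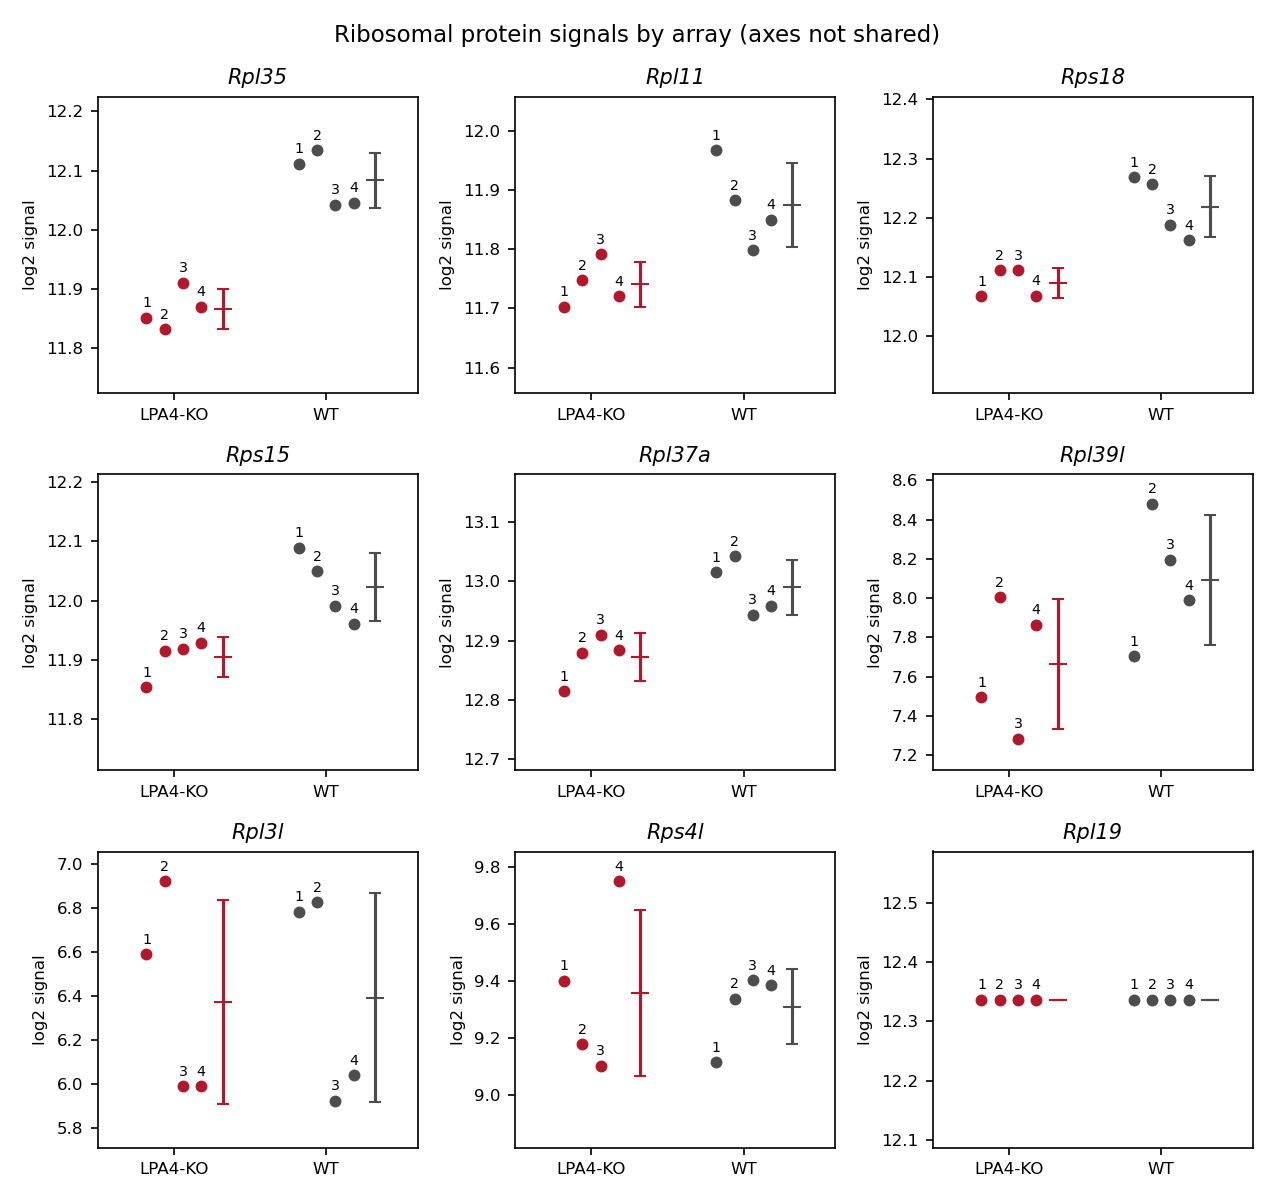
Log2 signal in every array for 9 members, with LPA4-KO (red) left of WT (grey), replicate numbers beside the points, and bars for the mean ± SD (n = 4). Rpl35, Rpl11, Rps18, Rps15 and Rpl37a do not overlap between genotypes, Rpl3l follows the replicate numbers, and Rpl19 is near constant; each panel has its own axis.

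Of the 15 small subunit members that varied, 12 averaged lower in LPA4-KO and 3 higher. By limma 0 of its 22 members passed the adjusted test, and 7 were lower and 0 higher at an unadjusted p under 0.05, where 10.1% of all genes were lower. Rps18, a protein of the small subunit head, gave 12.07, 12.11, 12.11 and 12.07 in LPA4-KO against 12.27, 12.26, 12.19 and 12.16 in WT. Rps15, which lies near the decoding centre, gave 11.85, 11.92, 11.92 and 11.93 in LPA4-KO against 12.09, 12.05, 11.99 and 11.96 in WT. Neither gene overlapped between the genotypes. Rps18 differed by -0.13 (adjusted p = 0.0603) and Rps15 by -0.12 (adjusted p = 0.0986).

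Rps18 stood next to the threshold, and several settings moved it across. Its limma adjusted p was 0.0418 when only genes above the median level were tested and 0.0473 without the x_at and s_at probe sets. After the median of varying probe sets was subtracted it was 0.0142. Rps18 did not pass in the other settings. Among these were varying genes alone (0.0595), quantile normalisation (0.109), the replicate block (0.158) and each single array left out (0.0624 to 0.143). Rps28, a small protein at the messenger RNA exit, differed by -0.06 (adjusted p = 0.0825), and Rpsa, also known as a laminin receptor, by -0.10 (adjusted p = 0.198). Rps25, needed for translation from some viral internal entry sites, differed by -0.09 (adjusted p = 0.0625). Rps26, Rps14 and Rps7 differed by -0.09, -0.09 and -0.07, and Rps10, Rps4x, Rps29 and Rps3 by -0.04 to -0.01.

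The 3 varying members with a higher mean in LPA4-KO were all of the small subunit. Rps4l, named for its likeness to Rps4x, had signals of 9.40, 9.18, 9.10 and 9.75 in LPA4-KO and 9.12, 9.34, 9.40 and 9.39 in WT. LPA4-KO 4 was the highest array and LPA4-KO 3 the lowest, and the WT arrays lay between them. The difference of 0.05 had a 95% interval of -0.33 to 0.42 and an adjusted p of 0.892. Rps20 differed by 0.03 (adjusted p = 0.806) and Rps9 by 0.00 (adjusted p = 0.966), and both signs turned in some alternatives.

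Averaged over members, both subunits were lower in LPA4-KO. The 14 varying large subunit members had mean signals of 11.43, 11.54, 11.43 and 11.43 in LPA4-KO, against 11.59, 11.66, 11.51 and 11.51 in WT. LPA4-KO 2 lay above the 2 lowest WT arrays. The 15 varying small subunit members had means of 11.91, 11.94, 11.94 and 11.96 in LPA4-KO, against 12.00, 12.02, 11.95 and 11.97 in WT, where LPA4-KO 4 lay above WT 3.

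The large subunit mean differed by -0.11 between the genotypes and the small subunit mean by -0.05, and the medians over varying members were -0.09 and -0.06. Without Rpl39l the large subunit mean differed by -0.08. Without Rpl39l and Rpl3l, a choice made after the values were seen, the large subunit means were 12.16 to 12.22 in LPA4-KO and 12.25 to 12.32 in WT and did not overlap. Over all members, near-constant ones included, the medians were -0.0234 for the large and -0.0161 for the small subunit. Their order turned when single arrays were left out, with -0.0202 and -0.0250 without LPA4-KO 3, -0.00852 and -0.0269 without LPA4-KO 4, and -0.0337 and -0.0433 without WT 3. Whether the subunits differed from each other was not tested. No p is given for these means, because the members were chosen with earlier results known.

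**Figure D3:**
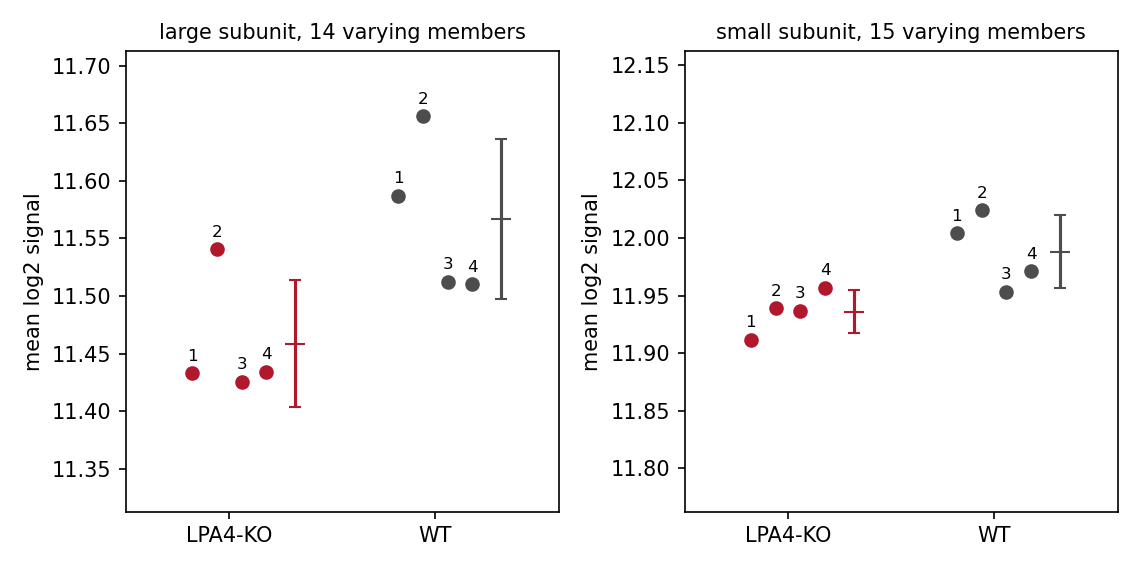
Mean log2 signal per array over the 14 varying large subunit members (left) and the 15 varying small subunit members (right), with LPA4-KO (red) left of WT (grey), replicate numbers beside the points, and bars for the mean ± SD over 4 arrays. The genotype difference is -0.11 for the large and -0.05 for the small subunit, and in both panels WT 1 and WT 2 are the highest.

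The lean was larger between arrays 1 and 2 than between arrays 3 and 4, each comparison setting 2 LPA4-KO arrays against 2 WT arrays. The median difference of the varying members was -0.12 between the LPA4-KO and WT arrays numbered 1 and 2, and -0.04 between those numbered 3 and 4. Over all varying genes the same medians were -0.01 and 0.03. The members were lower in LPA4-KO in 27 of 29 cases in the first comparison and in 23 of 29 in the second, and 23 were lower in both. Of all 5173 varying genes, 2696 were lower in the first, 2387 in the second and 1965 in both. Rpl35 differed by -0.28 and -0.15, and Rps18 by -0.17 and -0.09. The skeletal muscle markers parted by the same numbers in both genotypes, and their part in the size of the lean was not tested.

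**Figure D4:**
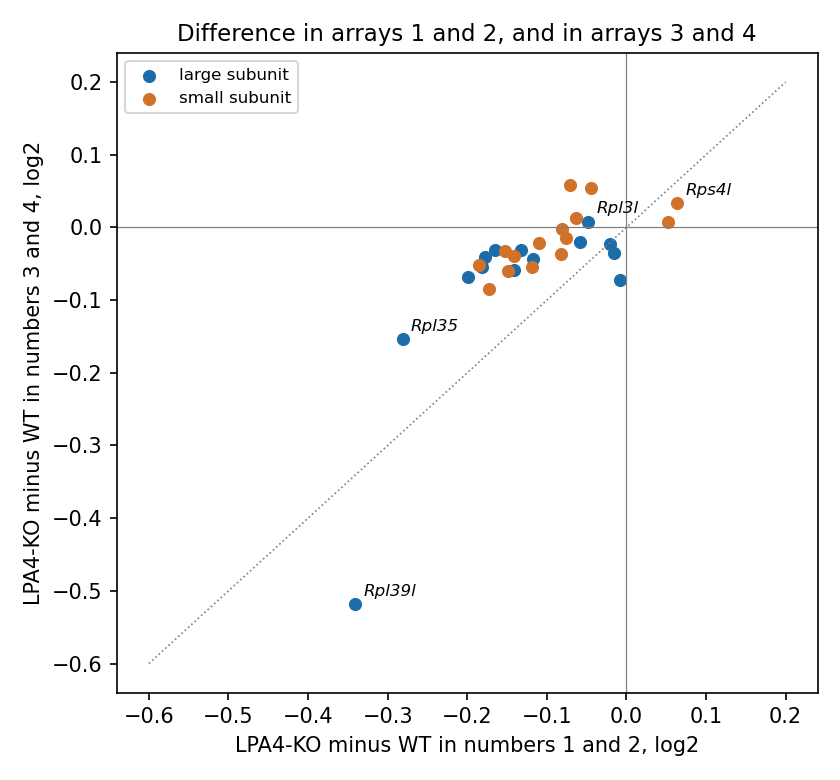
Difference between LPA4-KO and WT (log2) of each varying member, in arrays 1 and 2 (horizontal) and in arrays 3 and 4 (vertical), with blue for the large and orange for the small subunit and a dotted line of equality. Most members lie above the line at negative values, with medians of -0.12 and -0.04, and 23 of 29 are negative in both.

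A few members are paralogs with tissue-restricted expression in mammals. Rpl39l, a testis-enriched relative of Rpl39, had the largest difference of all members and a wide spread, with 7.50, 8.01, 7.29 and 7.86 in LPA4-KO against 7.70, 8.48, 8.20 and 7.99 in WT. LPA4-KO 2 and LPA4-KO 4 lay above the lowest WT array. Its difference of -0.43 had a 95% interval of -0.98 to 0.12 and an adjusted p of 0.322.

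Rpl3l, the relative of Rpl3 made in skeletal and heart muscle, followed the replicate numbers and not the genotype. It gave 6.59, 6.92, 5.99 and 5.99 in LPA4-KO against 6.78, 6.82, 5.92 and 6.04 in WT. The arrays numbered 1 and 2 were high in both genotypes, as for all 7 skeletal muscle markers taken as a mean, and the genotype difference was -0.02 (adjusted p = 0.979). Rps27l, a relative of Rps27 that responds to p53 in mammals, was near constant at 10.52.

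Near-constant signals were found in 17 of the 46 members (37.0%), a smaller share than the 71.6% of all genes. They were Rpl7, Rpl8, Rpl12, Rpl13a, Rpl14, Rpl19, Rpl22, Rpl27a, Rpl37 and Rpl39 in the large subunit (10 of 24, 41.7%) and Rps2, Rps6, Rps16, Rps19, Rps24, Rps27 and Rps27l in the small subunit (7 of 22, 31.8%). The largest SD among them was 0.000559, far under that of Rpl41. Their signals covered most of the range of the members, with Rps16 at 5.73, Rps24 at 12.58 and Rpl13a at 12.84.

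A near-constant value need not stand for the gene. Of the near-constant members, Rpl7, Rpl13a and Rps24 had a dimmer probe set that varied. For Rpl7, probe set 1426162_a_at gave 11.69, 11.73, 11.78 and 11.61 in LPA4-KO against 12.05, 11.98, 11.80 and 11.84 in WT, a difference of -0.21 (adjusted p = 0.137) with no overlap. Rps6, the ribosomal protein phosphorylated by S6 kinases, was near constant in both of its probe sets, at 8.84 and 6.27. Among all 100 member probe sets, 53 varied, of which 49 were lower and 4 higher in LPA4-KO, with a median of -0.08, and 7 were called lower and 0 higher, where 1.28% of all single-gene probe sets were called lower. Of these 7 probe sets 5 belong to Rpl35, and the other two to Rpl37a and Rpl41.

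**Figure D5:**
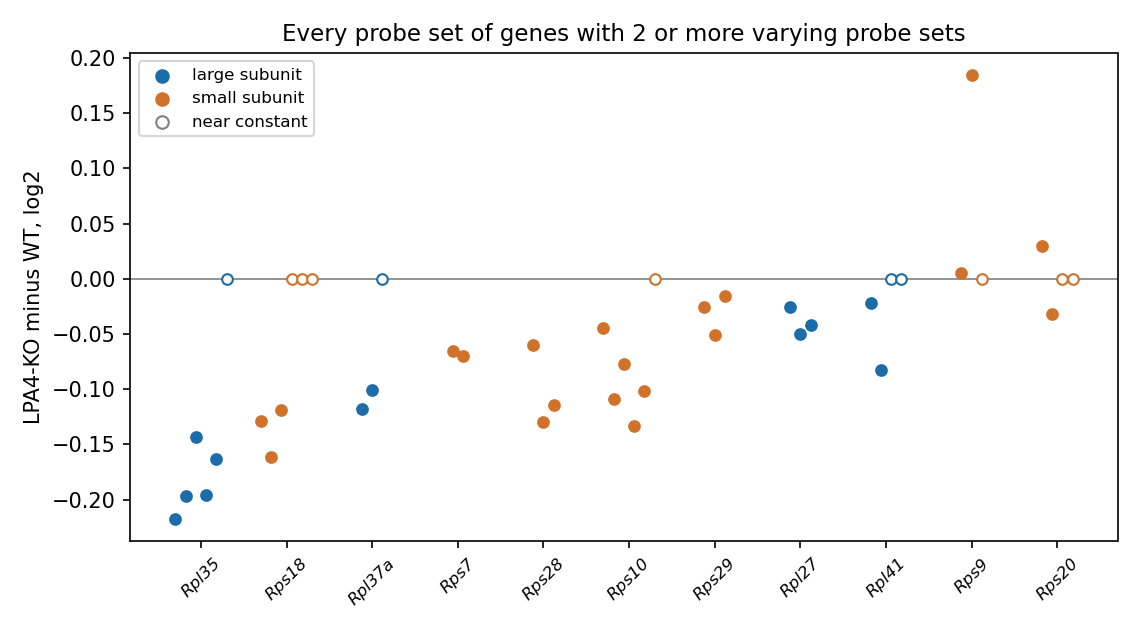
Difference between LPA4-KO and WT (log2) of every probe set of the 11 members with at least 2 varying probe sets, with blue for the large and orange for the small subunit and open circles for near-constant probe sets. In 10 of the 11 genes the varying probe sets have one sign, and Rps20 is the exception.

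Many ribosomal protein symbols of the array stood on probe sets shared by several annotated genes, which the rule leaves out. These 110 probe sets, looked at after the members' values were seen, carried 43 ribosomal protein symbols, 28 of them with no single-gene probe set, and because of the shared annotation none is named here. Of the 69 that varied, 67 were lower and 2 higher in LPA4-KO, with a median of -0.10 and a range of -0.26 to 0.11. In 35 of the 69 all LPA4-KO arrays lay below all WT arrays, as in 16.9% of all varying probe sets. Over all probe sets of the array 0.953% were called lower, and of these 110 probe sets 2 were.

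The varying members moved together from array to array. The median Pearson correlation over the 406 pairs of varying members was 0.592 across the 8 arrays, and 0.416 with the genotype means removed, against 0.0143 and 0.00967 for pairs of all varying genes. The arrays share their amplification, hybridisation and scaling, and probe sets that bind related transcripts share signal. The members were also steady genes, with a median SD of 0.0690 over the 8 arrays, against 0.164 for all varying genes.

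Other parts of the translation machinery were listed by known role. Of 50 ribosome biogenesis genes, 37 were near constant; 0 fell and 1 rose (2.39% of all genes rose), the small nucleolar ribonucleoprotein Nop10, with a difference of 0.00 that is itself near constant. Of the 13 that varied, 6 were higher and 7 lower in LPA4-KO. Pes1, of the PeBoW complex of large subunit assembly, differed by -0.26 (adjusted p = 0.143) and Las1l, which cleaves ribosomal RNA precursors, by -0.19 (adjusted p = 0.137), and neither passed among varying genes. The methyltransferase Fbl and Wdr12, also of the PeBoW complex, differed by 0.21 and 0.25 without passing over all genes (adjusted p = 0.0876 and 0.0652), and both passed among varying genes (adjusted p = 0.0377 and 0.0246), as did 14.9% of those genes in that direction. With the replicate block among varying genes both calls were lost (adjusted p = 0.0624 and 0.0565). Of 32 measured translation factors 0 passed in either direction by limma over all genes. At an unadjusted p under 0.05, 1 was higher and 12 lower, where 10.1% of all genes were lower. Of the 18 translation factors that varied 15 were lower, with a median of -0.09, against 0.01 over all varying genes. Eif3c, a core subunit of initiation factor 3, differed by -0.20 and passed among varying genes alone (adjusted p = 0.0481), where 12.2% of genes were called lower; the replicate block ended this call (adjusted p = 0.0506). Of 18 measured genes of mTORC1 signalling and TOP regulation, 0 passed in either direction by limma. At an unadjusted p under 0.05, 0 were higher and 2 of the 18 lower, a share near the 10.1% of all genes.

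Other genes whose messages carry a TOP motif in mammals were lower beside the ribosomal proteins. Of 13 measured, 10 varied and 9 of these were lower in LPA4-KO. The median was -0.19 over the 10 that varied, against 0.01 over all varying genes, of which 47.7% were lower. Over all 13 the median was -0.15, against 2.86e-05 over all genes, most of which were near constant. By limma 3 of the 13 fell and 0 rose, with 1.64% of all genes called lower and 2.39% higher. At an unadjusted p under 0.05, 7 of the 13 were lower and 0 higher, where 10.1% of all genes were lower. The RNA-binding protein Hnrnpa1 gave 8.93, 8.90, 8.85 and 9.10 in LPA4-KO against 9.47, 9.28, 9.41 and 9.44 in WT, a difference of -0.46 (limma adjusted p = 0.0294). The intermediate filament Vim fell by 0.25 (adjusted p = 0.0395), and Snhg8, a host gene of small nucleolar RNA, fell by 0.23 (adjusted p = 0.0291). None of the 3 overlapped between the genotypes. The array reads message levels, not translation. Among 10 measured relatives of the ribosomal proteins outside the rule, Btf3, a subunit of the nascent polypeptide-associated complex, fell by 0.18 (adjusted p = 0.0420), and Fau, the precursor of a small subunit protein, differed by -0.13 (adjusted p = 0.201). With the replicate block none of these 4 genes passed over all genes (adjusted p of 0.106 to 0.164), whereas Hnrnpa1, Vim and Snhg8 passed among varying genes with it.

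Mitochondrial ribosomal proteins, encoded in the nucleus and translated by the cytosolic ribosome, stood on the other side. Of 76 measured, 28 varied, 25 of them higher in LPA4-KO and 3 lower, with a median of 0.17 over these 28. Over all varying genes 47.7% were lower, and the median was 0.01. Over all genes 11 rose and 1 fell, where 2.39% of all genes rose and 1.64% fell. Among varying genes 13 rose and 1 fell without a block, where 14.9% of varying genes rose and 12.2% fell. With the replicate block among varying genes 8 rose and 0 fell, where 10.3% of varying genes rose and 9.24% fell. Over all genes the block left 0 genes called. The difference between the cytosolic and the mitochondrial sets was not tested.

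Other signals moved with the genotype in the same arrays. For 18S ribosomal RNA, the RNA of the small subunit, all 3 control probe sets were higher in LPA4-KO by 0.44, 0.22 and 0.28 (limma adjusted p = 0.0321, 0.0389 and 0.0307 over all probe sets), with no overlap between the genotypes. These are controls of the array read after RNA amplification, and whether they follow the amount of 18S ribosomal RNA in the tissue was not tested. The actin controls differed by -0.09 to -0.13 and the Gapdh controls by -0.03 to -0.05, none of them passing. LPA4-KO 1 was the lowest array in each actin and Gapdh control. It gave 11.64 in the 5′ actin control (other arrays 11.86 to 12.12) and 9.89 in the 5′ Gapdh control (10.18 to 10.43). Without LPA4-KO 1 the median difference over all members was -0.0241, against -0.0234 with it. The 5 blood endothelial markers were all lower in LPA4-KO, with array means of 9.23 to 9.48, against 9.51 to 9.74 in WT. Over all genes 1 of them, Esam, fell. Among varying genes 4 of the 5 were called lower, as were 12.2% of those genes. All 6 macrophage markers averaged higher in LPA4-KO (median difference 0.38), with overlapping array means of 10.02 to 10.24, against 9.13 to 10.45 in WT. The 4 T cell markers that varied also averaged higher (median difference 0.43). The 5 measured T cell markers had array means of 6.78 to 7.19 in LPA4-KO and 6.39 to 7.09 in WT. No macrophage or T cell marker passed in either fit. Among the 6 measured adipocyte markers Adipoq rose by 0.25 (limma adjusted p = 0.0486), where 2.39% of all genes rose. Of the 5 adipocyte markers that varied, 2 were higher and 3 lower in LPA4-KO, with a median difference of -0.03 over all 6. With the replicate block among varying genes Esam passed (adjusted p = 0.0371) and Adipoq did not (adjusted p = 0.0534). The part of these signals in the lower ribosomal protein values was not tested.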

How the data were processed

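The authors deposited log2 values of 8 arrays, 1 per mouse; per the submitters' processing notes R 2.14.0 was used, and how background, scaling and summarisation were handled is not stated. The log2 scale was inferred from the range of the values, 4.93 to 14.3. Platform annotation named 34945 probe sets by a single gene, 932 by several and 9160 by none, and 64 were controls. The 46 member symbols were all found in the GRCm38.p6 gene table. The brightest single-gene probe set stood for each gene. The genotypes were compared in limma 3.58.1 (R 4.3.3, lmFit then eBayes), two-sided, adjusted over all genes with Benjamini-Hochberg, without a block. The number of arrays limits the precision.

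Replicate numbers 1 to 4 occur in each genotype. Deviations from the genotype means correlated at 0.315, 0.486, 0.189 and 0.244 between same-numbered arrays, all over the minimum of 0.1 set for pairs. LPA4-KO 1 with WT 2 (0.107) and LPA4-KO 2 with WT 1 (0.220) also exceeded it. LPA4-KO 3 and WT 4 (0.364), and LPA4-KO 4 and WT 3 (0.266), correlated better than same-numbered arrays 3 and 4. Arrays 1 and 2 correlated negatively with arrays 3 and 4 of the other genotype. The values thus cannot tell pairs by number from a split of 1 and 2 against 3 and 4. The labels do not say what a number shares, and both were run as blocks in alternative fits.

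The members, lists and alternatives were chosen with earlier results of these data known. Named members are those past the threshold, the 6 largest differences either way, the 4 most variable, the 3 brightest and 3 dimmest, and some by role; others were named after their values were seen. The list shares are read without a set test. The fit was tested on simulated data. Alternatives covered the probe set per gene, genes tested, scaling, variance model, blocks and arrays left out.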

Additional observations from a re-analysis of the deposited data

Results flagged for a closer look

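The mean signal of the varying large subunit members in LPA4-KO 2 stood apart from the other 3 LPA4-KO arrays, at 11.54 (11.5408) against 11.43, 11.43 and 11.43. Of 44 groups of 4 arrays looked at, this was 1, and chance alone gives about 1 in 20. Without Rpl39l and Rpl3l, the 2 most variable large subunit members, LPA4-KO 2 had a mean of 12.22, as did LPA4-KO 3.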

How the results depend on the processing

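The members' median stayed below 0 under every alternative run, and 8 arrays limit the precision. The 2 members called lower became 4 with the mean of all probe sets, 4 among genes above the median level, 1 after quantile normalisation (which also called 1 higher, the near-constant Rpl13a), 1 with a variance trend, 1 among varying genes, 0 with the replicate block, 1 with the replicate block among varying genes, and 0 to 3 without single arrays. Among varying genes, settings added after seeing the data gave 1 without each array in turn, and 1 with a block of arrays 1 and 2 against arrays 3 and 4. The medians among varying genes, with or without the replicate block, were -0.0803 for all, -0.0901 for large and -0.0597 for small subunit members. Leaving out single arrays gave medians from -0.0401 to -0.00979 for all members, from -0.0454 to -0.00852 for the large and from -0.0433 to -0.00683 for the small subunit. The near-constant count of 17 of 46 members stayed at 17 with an SD limit of 0.005, and became 18 with 0.02 and 24 with 0.05. Counted over probe sets instead of genes, 47 of 100 were near constant. Over 286 comparisons of varying members named, 254 kept direction and side of the threshold, 14 lost it, 4 gained it and 14 turned. Rps20 turned with the mean of probe sets (-0.000620) and without x_at and s_at probe sets (-0.000295), and Rpl41 without them (1.04e-05). Without single arrays the differences ran from -0.00718 to 0.0591 for Rps20, from -0.0337 to 0.0310 for Rps9, from -0.203 to 0.124 for Rpl3l, from -0.0821 to 0.133 for Rps4l and from -0.0529 to 0.00149 for Rps29. The cause of these changes was not tested.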
